A study of Mus musculus with 7 samples.

Results

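The genes described here are the protein-coding genes whose counts fell on several 3′ regions, that is, on more than 1 stretch counted near the annotated ends of their transcripts. A region was chosen where it belonged to a protein-coding gene and held at least 100 counts summed over the 7 libraries, and it was kept where its gene had 2 or more such regions. This gave 2526 regions of 1111 genes, out of 116000 counted regions of 55364 genes. Another 6231 protein-coding genes had exactly 1 region with 100 counts. The level of each region therefore chose it and is a description. The comparison of region usage between the groups was not part of the rule, although a region can reach 100 counts through a single library or a single group. At the edge of the rule, 12 chosen regions held exactly 100 counts, and 12 protein-coding regions with 99 counts were left out.

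The libraries came from CD4 T cells that were sorted by CD45, CD3 and CD4 out of lung tumours grown orthotopically in C57BL/6 mice, all over 8 weeks of age. The 5 Control libraries came from I-AbF/F mice and the 2 Cre libraries from I-AbF/FCol1a2-cre mice. All mice thus carried the loxP-flanked I-Ab allele, a chain of MHC class II, and all received tamoxifen. Cre was under the promoter of Col1a2, a collagen gene of fibroblasts, so the sorted cells were not the cells aimed at, and the comparison asks about T cells in tumours whose fibroblasts were to lose MHC class II.

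Nearly all mRNAs end where the nascent transcript is cut and a poly(A) tail is added, a short way downstream of a signal hexamer, most often AATAAA or its variant ATTAAA. Many genes hold several such signals. A site in an intron or an alternative last exon gives a transcript with another end of its coding sequence, while tandem sites within a last exon give the same protein with a shorter or longer 3′ UTR. Activated and dividing T cells are known for a general use of shorter 3′ UTRs, and Nfatc1 is known for a short isoform made from a proximal site in effector lymphocytes.

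Library totals ran from 1449739 to 1929899 counts, with Cre 2 the smallest and Cre 1 the largest, and the chosen regions held 26.0% to 29.4% of each. Markers of CD4 T cells (10 genes) lay between 4865 and 6434 CPM in sum in the Control libraries (CPM, counts scaled to the library total) and at 6035 and 4839 CPM in Cre 1 and Cre 2. Both CD8 T cell markers together reached at most 9.49 CPM in Control and were at 0 in Cre. For the 7 macrophage and monocyte markers the sums were 12.9 to 45.8 CPM among Control libraries, against 1.04 and 4.14 CPM for the Cre libraries. For the 5 fibroblast markers they were 160 to 492 CPM, against 258 and 53.1 CPM for Cre 1 and Cre 2. The part of other cells in the results below was not tested. In bulk samples like these, fewer cells of a type and less RNA per cell cannot be told apart.

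Ends of the chosen genes are shown for 8 of them, because they show the 2 kinds of region the table holds. Each line is the 30 bases that close a transcript annotated in GENCODE M21 (build mm10), or the 30 bases that start at the hexamer where it lay further upstream, read 5′ to 3′, with AATAAA or ATTAAA in capitals. The counted region reaches 249 bases past that transcript end. For the retained-intron transcripts of Cd28, Il2rg, Lck, Arhgef6 and Wsb2 the region is 249 bases wide. It starts at the base after the transcript end and holds none of the printed bases. Of all chosen regions, 666 were exactly 249 bases wide.
Cd28 proximal, retained-intron transcript, chr1:60764597-60764626, plus strand: tttattacaactttattagaaagaacttgg
Cd28 distal, coding transcript, chr1:60773330-60773359, plus strand: tagcctgcAATAAAtatttattcattgact
Il2rg proximal, retained-intron transcript, chrX:101266666-101266695, minus strand: gcaaagtacaactaggagggaccagaactg
Il2rg distal, coding transcript, chrX:101264379-101264408, minus strand: AATAAAgtttttaaccaatgatcatcaaga
Lck middle, retained-intron transcript, chr4:129556863-129556892, minus strand: gagggaagggcaggcagatatctgagttga
Lck distal, coding transcript, chr4:129548347-129548376, minus strand: AATAAAagtctgttgaattaaggttgtaca
Arhgef6 proximal, retained-intron transcript, chrX:57272228-57272257, minus strand: aaactatgctcgggctctgcccagtatctg
Arhgef6 distal, coding transcript, chrX:57231485-57231514, minus strand: aaacaagAATAAAcagtgctttataaataa
Wsb2 proximal, retained-intron transcript, chr5:117366749-117366778, plus strand: acgactttcaagAATAAAgatctgaatacc
Dnajb6 proximal, coding transcript, chr5:29757940-29757969, plus strand: ctagAATAAAaagaattgcttctatcacca
Cdc42 proximal, coding transcript, chr4:137321762-137321791, minus strand: aaATTAAAaatatacaattgtttgtataaa
Cdc42 distal, coding transcript, chr4:137319696-137319725, minus strand: tATTAAAcaaacaaaacccttcacaagtga
Hnrnpa2b1 proximal, coding transcript, chr6:51462760-51462789, minus strand: tatgatttAATAAAataattctaaaggaaa
Hnrnpa2b1 distal, coding transcript, chr6:51460932-51460961, minus strand: ttactgtctAATAAAatataccttactatg

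Most proximal regions of these genes did not end at the end of a complete coding transcript. Of the 1111 distal regions, 1002 lay at the end of a complete protein-coding transcript, against 178 of the 1111 proximal regions. Another 617 proximal regions lay at the end of a transcript of another kind, 440 of them retained-intron transcripts as in Cd28, Il2rg and Arhgef6. A further 91 lay only at transcripts annotated without a known 3′ end, and 225 at no transcript end. In 534 proximal regions the largest part was intronic, while the distal regions were mostly noncoding exon (857) or sequence past the gene's annotated end (212).

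The share of ends with a signal hexamer differed with the kind of transcript and with the position in the gene. AATAAA or ATTAAA, searched as these letters on the transcript strand, lay within the last 40 bases of 79.2% of 1102 distal transcript ends, that is, of 80.9% of the 1002 at complete coding transcripts and 62% of the 100 at other transcripts. It lay in 62.4% of the 178 proximal ends of complete coding transcripts and in 11.7% of the 617 proximal ends of other transcripts. Over all 48081 counted regions of protein-coding genes with a transcript end the share was 41.1%, with 68.4% at complete coding ends and 15.1% at other ends. The reverse complements of the hexamers, searched in the same windows, lay in 11.3% of the distal, 9.55% of the complete proximal and 3.89% of the other proximal ends. Where AATAAA was found, its first base lay a median of 24 bases before the distal ends and 23 bases before the proximal ends. A match describes these letters and is no proof of a used site.

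**Figure D1:**
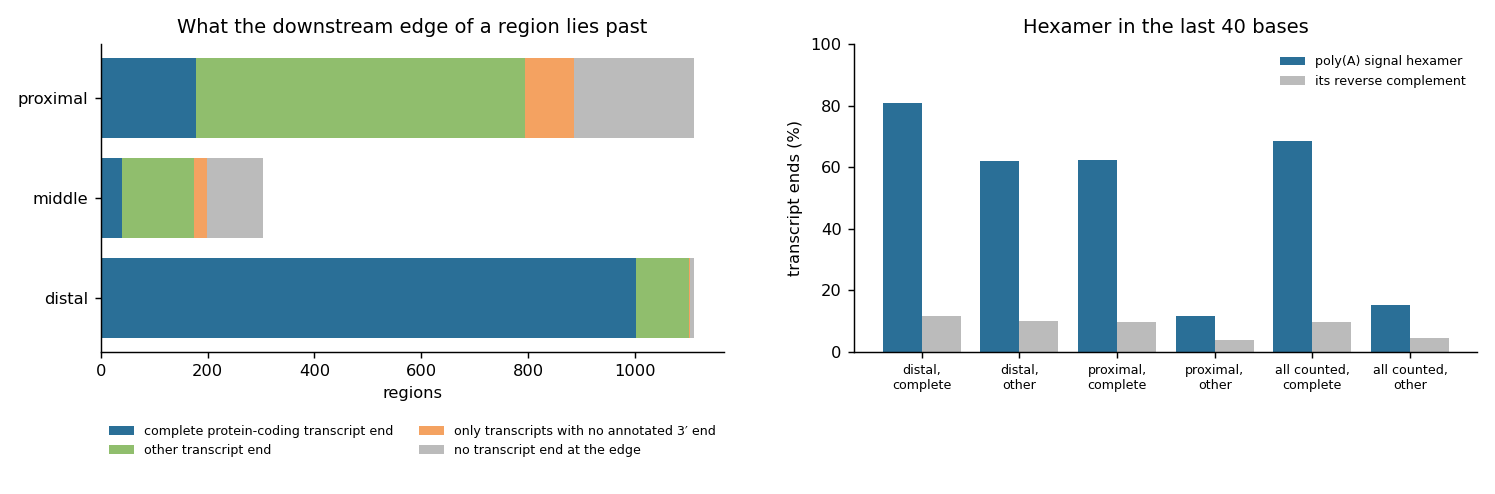
Left: number of proximal, middle and distal regions by what their downstream edge lies past. Right: percent of transcript ends with AATAAA or ATTAAA, or a reverse complement of these, in the last 40 bases; among transcripts that are not complete coding ones, the distal ends reach 62% and the proximal ends 11.7%.

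Tandem sites within a 3′ UTR could not be followed in this table. Ends that lie close together mostly fall into the same counted region: of 141 genes with 2 chosen regions that both lay at complete coding ends, only 1 had both in the same exon. What the regions compare is therefore mostly an intronic or internal stretch against the last exon. The gap between the regions of the 890 genes with exactly 2 had a median of 5053 bases. Counts of neighbouring regions were not always exclusive either. In 4 of 1415 neighbouring pairs, those of Dhodh, Fancm, Hspa5 and Uty, both regions held identical counts in every library. Identical counts are the strict case, and how far other pairs share reads was not tested. A region of Rps3 that is 3 bases wide held 30606 counts beside 32331 in the distal region of that gene, and a 15-base region of B2m held 2801. Regions under 50 bases numbered 55.

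The distal region was the main one for most genes. Among the 890 genes with 2 regions, it held a median of 69.0% of the gene's counts (lower and upper quartile 53.7% and 84.0%), and more than 50% in 716 of them. Over all chosen regions, 67.3% of counts were distal, 21% proximal and 11.7% in between. Genes with 3 regions numbered 162, and 59 genes had 4 or more, up to 9 in Smc4, a subunit of the condensin complexes, and 8 in Rbm39, a splicing factor. The steadiness of the share followed the gene's counts. Across the 5 Control libraries, the SD of the distal share had a median of 28.0 points in genes with a mean of 20 to 100 counts and of 4.47 points in genes with 1000 counts or more. Counting alone would give a median SD of 6.02 and 0.809 points in these classes, so the libraries differed by several times the counting error at every depth.

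Several of the most highly counted genes held similar shares in all libraries. Cd52, a small surface glycoprotein of lymphocytes anchored by GPI, held 4352, 1279, 2909, 2465 and 1686 counts in its intronic proximal region (chr4:134093827-134094075) in Control, against 3110 and 1429 in Cre. Its distal share was 57.2% ± 2.08 (SD, n = 5) in Control and 59.7% ± 4.48 (SD, n = 2) in Cre, with overlapping libraries. In Actb, cytoplasmic beta-actin, the distal region held 92.4% ± 4.37 and 91.7% ± 2.28, and in Ms4a4b, a membrane protein of T cells, 99.2% ± 0.716 and 99.0% ± 1.0. Ribosomal protein genes made up most of the other highly counted members. Rpl36a held 42.3% ± 3.07 of its counts distally in Control and 43.4% ± 1.25 in Cre, while Rpl11 spread over 4 regions with 29.4% ± 2.41 and 28.2% ± 0.366 in its distal one. Rps24, known for alternative splicing near its 3′ end, held 42.7% ± 3.96 in region 2 and 48.0% ± 1.54 in region 4 in Control, against 45.0% ± 3.51 and 47.4% ± 2.50 in Cre. Its small region 3, which closes a complete coding transcript, held 0.76%, 2.42%, 6.17%, 0.58% and 2.85% in Control and 0.46% and 0.05% in Cre. The groups did not overlap there (unadjusted p 0.0198 in edgeR's usage test of the region, described below). The region did not pass the adjusted threshold. Region 2 of Rps24 held 3729, 4806, 3464, 4284 and 4227 counts in Control, against 14390 and 6017 in Cre. Region 4 held similar counts, 4111, 5055, 4521, 4819 and 4535 in Control, against 14912 and 6463 in Cre. Regions 2 and 3 of Rps3 were also similar in most libraries. Whether the same reads were counted in both regions was not tested, so these may not be shares of separate ends. Ribosomal protein genes have near-identical copies elsewhere in the genome, so reads could be split between them and these shares are uncertain. Of 43 ribosomal protein genes tested, none reached an unadjusted p of 0.05 in the usage test of the whole gene (edgeR), with a median distal share of 56.2% and a range from 0.227% to 98.5%. For regions of several of them, such as Rpl11, Rpl36a and Rps3, the test statistic was at its lowest possible value. The count therefore does not show that usage was alike. The statistic was also at this value in both regions of Cd52 and Ikzf2. The same held for the distal regions of Actb, Cd4, Ptprc and Satb1, among others.

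Among T cell genes, several kept a large share of their counts in an intronic region. Lck, the Src-family kinase that phosphorylates the T cell receptor complex, had its main region mostly in an intron (chr4:129556614-129556862). That region starts at the base after the end of the retained-intron transcript shown above. This region held 1717, 1005, 955, 1328 and 2002 counts in Control, against 1857 and 435 in Cre, or 62.6% ± 9.79 (SD, n = 5) and 54.4% ± 2.01 (SD, n = 2) of the gene. Its distal region (chr4:129548095-129548894), which covers the end of the coding transcript, held 35.4% ± 8.04 and 42.4% ± 1.88. The Cre libraries fell within the Control range for the distal share. Cd28, the co-stimulatory receptor of T cells, likewise had more counts in an intron (chr1:60764627-60764875) than at its annotated end (chr1:60769786-60773608). The intronic share was 60.7% ± 12.8 in Control, but the Cre libraries lay far apart, at 88.7% in Cre 1 and 48.6% in Cre 2. Il2rg, the common gamma chain of the interleukin-2 receptor family, held 352, 222, 177, 206 and 544 counts in its intronic region in Control, against 682 and 409 in Cre. Its distal region held 336, 242, 648, 385 and 296 counts in Control, against 399 and 262 in Cre, so the distal share was 56.0% ± 16.5 and 38.0% ± 1.51, within the Control range.

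Other T cell genes ended mainly at their last exon. Cd4 itself, the co-receptor that the sort used, held 330, 355, 670, 558 and 298 counts in its distal region (chr6:124864443-124866244) in Control, against 731 and 489 in Cre. Its intronic region held 33, 54, 68, 47 and 31 counts in Control, against 0 and 77 in Cre, so the distal share was 90.3% ± 2.04 against 93.2% ± 9.62, and the Cre libraries lay on both sides of the Control range. Ptprc, which encodes CD45, had 95.2% ± 8.95 of its counts in the distal region in Control and 90.5% ± 13.4 in Cre. Ccnd2, a cyclin of the G1 phase, had 98.9% ± 1.01 and 97.4% ± 3.70, and Ikzf2, which encodes the transcription factor Helios of regulatory T cells, 82.4% ± 10.4 and 74.3% ± 22.7. The transcription factor gene Stat3 showed how far libraries of 1 group could lie apart: its distal share was 100% in Cre 1, where 3 counts were seen in all, and 13.2% in Cre 2, against 49.6% to 90.9% in Control. Satb1, a chromatin organiser of T cells, had 36, 0, 4, 51 and 112 counts in its intronic region in Control but 0 in both Cre libraries, beside 555 and 1455 distal counts there; its usage test gave an unadjusted p of 0.0383 and an adjusted p of 0.682 (edgeR). In Bcl2, the inhibitor of apoptosis, the distal share was 57.9%, 54.1%, 63.9%, 59.5% and 36.3% in Control and 83.2% and 70.5% in Cre, so the groups did not overlap. The unadjusted p of Bcl2 was 0.0508.

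Pairs of regions that both close complete coding transcripts are the clearest alternative ends among these genes. Hnrnpa2b1, an RNA-binding protein of the hnRNP family, held 50.1% ± 13.3 of its counts in the proximal end and 38.0% ± 13.2 in the distal end in Control, and 48.2% ± 0.103 and 37.8% ± 1.91 in Cre. Cdc42, a small GTPase whose alternative last exons encode different C-termini, held 675, 475, 477, 351 and 400 counts in its distal end in Control, against 450 and 329 in Cre. The proximal end of Cdc42 held 27, 26, 32, 4 and 25 counts in Control, against 84 and 0 in Cre, a proximal share of 4.47% ± 2.08 against 7.87% ± 11.1. The Cre libraries lay within the Control range in both ends of Hnrnpa2b1 and on both sides of it in Cdc42.

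**Figure D2:**
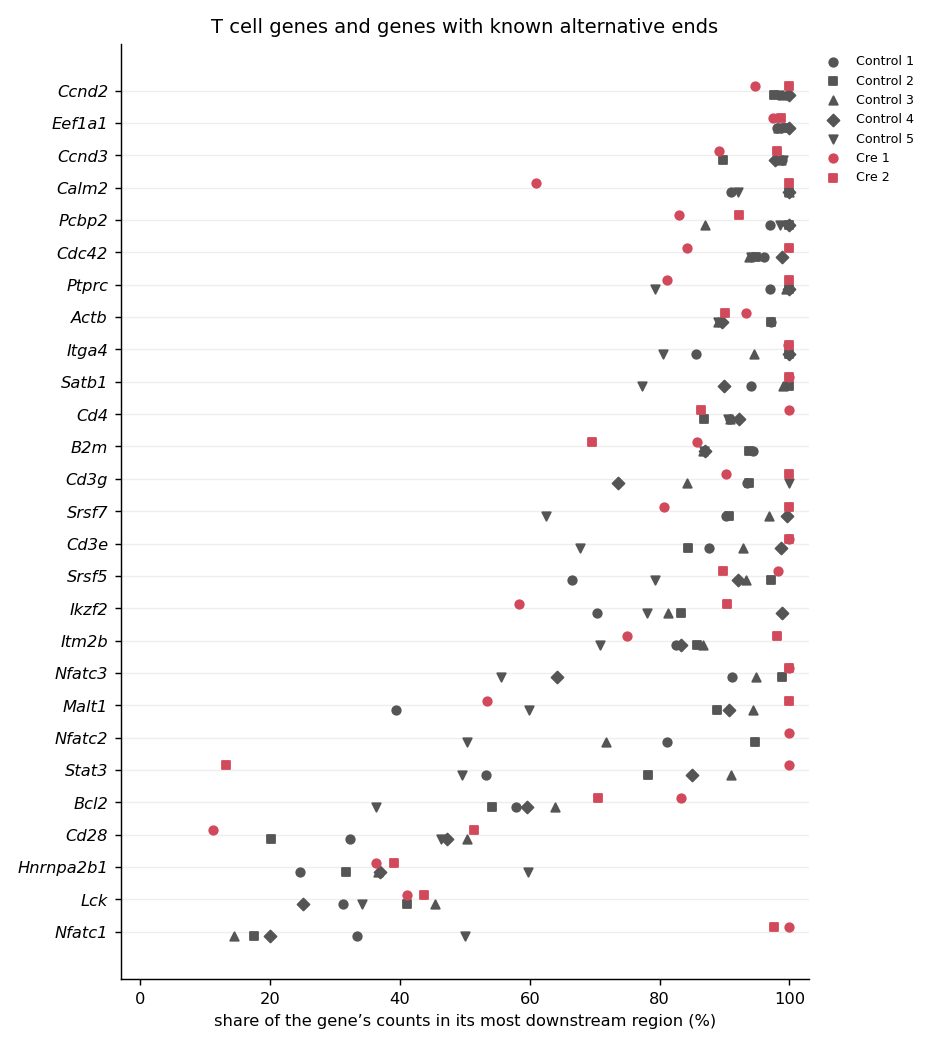
Share of the gene's counts in the most downstream region (percent) for the 27 chosen genes from a list of T cell genes and genes with known alternative ends; each point is 1 library, grey for Control and red for Cre. Most genes lie above 80% in Control, Lck and Cd28 have Control means of 35.4% and 39.3%, and in Nfatc1, Bcl2, Nfatc3 and Cd3e both Cre libraries lie to the right of all Control libraries, as they lie to the left in B2m. The point of Cre 2 in Cd3e rests on 3 counts in all, and that of Cre 1 in Nfatc1 on 8.

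Whether region usage differed between Cre and Control was tested by comparing, within each gene, the change of each region with that of the gene's other regions (edgeR's quasi-likelihood usage test, with p-values adjusted by Benjamini-Hochberg over all genes of the table with several counted regions). No gene passed an adjusted p of 0.05: 0 of 1562 genes tested (0%), of which 1049 were chosen genes, and 0 of 3669 regions (0%), of which 2364 were chosen regions. The other 62 chosen genes did not pass the filter on low counts with 2 regions. At an unadjusted p of 0.05, 105 of the 1562 genes passed, or 6.72%, and 98 of these were chosen genes, or 9.34% of the chosen genes tested. Among regions, 84 passed at that level, or 2.29%. Of the chosen regions, 27 were higher in Cre (background 0.818%) and 53 lower (background 1.47%). The chosen genes supply most of the background themselves, and nothing is read from these shares about them as a set. The tested regions include those whose statistic was at its lowest possible value, such as both regions of Cd52. Without Cre replicate 1, which leaves a single Cre library whose spread is taken from Control, 6 of 2645 genes passed (0.227%), all of them chosen genes: Zgpat, Gm49336, Sec22b, Tmed2, Ppp3ca and Cisd2. Limma's voom likewise called 0 genes and 0 regions, with 132 genes and 297 regions at an unadjusted p under 0.05. DESeq2, which compares a region with the rest of its gene, called 27 of 3669 regions (0.736%), taken up below.

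The smallest p-values came from Zgpat and Gm49336, both with an adjusted p of 0.0648 (edgeR). Zgpat encodes a zinc-finger and G-patch protein that represses transcription. Its proximal region (chr2:181380503-181381394), which ends at no annotated transcript, held 24, 14, 10, 27 and 0 counts in Control, against 108 and 259 in Cre. Its distal region (chr2:181383258-181383877), which shares bases with a counted region of a neighbouring gene, held 296, 259, 364, 132 and 445 counts in Control, against 189 and 52 in Cre. The distal share was thus 93.5% ± 6.51 in Control and 63.6% and 16.7% in Cre, and the groups did not overlap. Relative to the rest of the gene, the fitted difference of the proximal region, Cre minus Control, was 3.69 ± 0.96 (standard error) on the log2 scale. That region reached the count of the rule only through Cre. Gm49336, a predicted protein-coding gene, showed the opposite direction. Its intronic proximal region (chr14:60223739-60223987) held 19, 68, 44, 63 and 119 counts in Control, against 0 and 1 in Cre, while its distal region (chr14:60217829-60219988) held 46, 40, 0, 8 and 36 in Control, against 161 and 401 in Cre. The distal share was 28.5% ± 27.4 in Control and 100% and 99.8% in Cre. DESeq2 called both regions of Gm49336, which it set against each other in 1 comparison (adjusted p 0.0242), and no chosen region of Zgpat. Both genes passed under a filter that asked for 10 counts in 5 libraries (adjusted p 0.0439 each, the only calls among 481 genes, or 0.416%) and without Cre replicate 1 (0.00663 for Zgpat and 0.0453 for Gm49336), while over all alternatives run with edgeR or limma their adjusted p ranged from 0.00663 and 0.0439 up to 1.

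The next genes in that order are given as values, since none passed the edgeR test, although DESeq2 called regions of 3 of them (Samhd1, Ablim1 and Zfp266). Arhgef6, an exchange factor that activates Rac and Cdc42, had 81, 0, 34, 0 and 0 counts in its proximal, intronic region (chrX:57271979-57272227) in Control, against 177 and 231 in Cre. Its distal region (chrX:57231236-57233510) had 44, 160, 162, 230 and 138 counts in Control, against 0 and 110 in Cre. Neither Cre library reached the lowest Control value of the distal share, at 0% and 32.3% against 35.2% to 100% (unadjusted p 0.00131, adjusted p 0.361, edgeR), and the proximal end shown above has no hexamer in its last 30 bases. Wsb2, a substrate receptor of a ubiquitin ligase, had no distal counts in either Cre library, against 39, 25, 24, 8 and 16 in Control, beside 178 and 63 counts in its proximal region in Cre and 21, 0, 0, 0 and 3 in Control. The proximal end of Wsb2 is annotated as a retained intron and does carry AATAAA. Dnajb6, a co-chaperone of the Hsp40 family with known short and long isoforms, had 11, 0, 9, 53 and 3 counts at its proximal coding end (chr5:29757880-29758218) in Control, against 178 and 159 in Cre, or 5.81% ± 8.64 and 43.1% ± 13.0 of the gene. The proximal share of Dnajb6 did not overlap between the groups, whereas its distal share, 67.1% ± 18.5 and 38.8% ± 19.9, did.

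Nfatc1 encodes a transcription factor activated by calcineurin, and in Cre nearly all its counts lay at the distal end. The proximal end closes a complete coding transcript and held 50, 47, 71, 32 and 41 counts in Control, against 0 and 9 in Cre, while the distal end held 25, 10, 12, 8 and 41 in Control, against 8 and 364 in Cre. The distal share was 27.1% ± 14.7 in Control and 100% and 97.6% in Cre, but Cre 1 rested on 8 counts in all and the adjusted p was 0.361 (edgeR, unadjusted 0.00139). The related genes Nfatc2 and Nfatc3 had 25.5% ± 18.6 (over the 4 libraries with a count) and 19.1% ± 19.7 in an intronic proximal region in Control. In Cre, Nfatc2 was counted only in Cre 1, with 95 distal counts, and Nfatc3 only in its distal region, with 348 and 93 counts.

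Samhd1, a dNTP triphosphohydrolase, was counted in 6 regions. Its distal region (chr2:157097284-157101443) held 1257, 1213, 1389, 1205 and 1838 counts in Control, against 1381 and 778 in Cre. The distal share was 64.3%, 69.9%, 62.8%, 62.2% and 55.9% in Control and 50.9% and 52.0% in Cre, below every Control library (unadjusted p 0.000493, adjusted p 0.257, edgeR). An intronic region that adjoins the distal one held 10.6% ± 1.64 and 20.9% ± 1.88 in Control and Cre, and the coding region next upstream held 12.4% ± 1.98 and 24.2% ± 1.39. The region that DESeq2 called in Samhd1 was a smaller coding one, region 2, with 56, 51, 28, 67 and 13 counts in Control and 0 in both Cre libraries (adjusted p 0.0172). Rbm39 showed the reverse. Its region 2, intronic, held 53, 66, 228, 62 and 143 counts in Control, against 91 and 0 in Cre. Its distal region (chr2:156146990-156148191) held 25.8%, 56.6%, 38.9%, 62.0% and 27.1% of its counts in Control and 82.3% and 80.1% in Cre (unadjusted p 0.00603, adjusted p 0.471, edgeR).

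Ablim1, an actin-binding LIM protein, had 178 and 89 counts in a middle region (chr19:57040805-57041053) in Cre and 8, 0, 0, 0 and 0 in Control, and its distal share was 95.5% ± 4.42 and 69.5% ± 6.97 without overlap. DESeq2 called this middle region, with an adjusted p of 0.0489. It reached the count of the rule only through Cre. So did the proximal regions of Wsb2, Dnajb6, Me2 and Ppp1r16b and the distal region of Nfatc1. Cre counts helped to choose these regions, so their higher level there is a description. Zfp266, a zinc-finger protein, had 30, 29, 19, 203 and 275 counts in its intronic region in Control but 0 in both Cre libraries. DESeq2 called both regions of Zfp266, which it set against each other in 1 comparison (adjusted p 0.0156). Ndufa6, a subunit of respiratory complex I, had 30.1% ± 14.1 of its counts in a coding stretch in Control and 2.27% and 0% in Cre. Me2, the mitochondrial malic enzyme, and Ppp1r16b, a regulatory subunit of protein phosphatase 1, completed the 12. Me2 had no count in Cre 2, and its 280 counts in Cre 1 were all proximal. Ppp1r16b was proximal only in Cre 1 (170 counts) and distal only in Cre 2 (17 counts). In both, the sign of the fitted difference changed without Cre replicate 1. For Me2 that fit has no Cre count and does not measure usage.

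**Figure D3:**
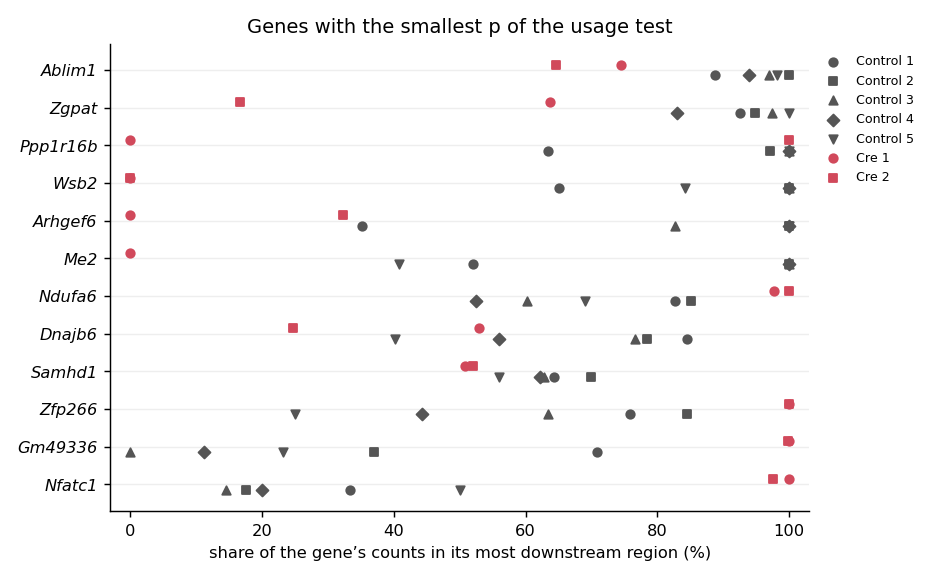
Share of the gene's counts in the most downstream region (percent) for the 12 chosen genes with the smallest p-values of the usage test; each point is 1 library, grey for Control and red for Cre. The Cre libraries lie below the Control libraries in Zgpat, Wsb2, Arhgef6, Ablim1 and Samhd1, and above them in Gm49336, Nfatc1, Ndufa6 and Zfp266, and in Ppp1r16b they lie at 0% and 100%.

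DESeq2 called 25 of 2364 chosen regions, in 18 genes, where 27 of all 3669 regions were called (0.736%). Of the 25, 11 were higher and 14 lower in Cre relative to the rest of the gene. These calls are not all separate results. In Gm49336, Parp14, Pnpla7, Trim59 and Zfp266 each called region was set against the other one. Such a pair has the same p and mirrored differences, and is 1 comparison counted once higher and once lower. Of the 14 lower regions, 11 were at 0 in both Cre libraries and all had a count in every Control library, so these 11 reached 100 counts through Control alone. Proximal or middle regions made up 12 of the lower and 3 of the higher calls. Bptf, a subunit of a chromatin remodelling complex, had 48, 96, 39, 64 and 614 proximal counts in Control but 0 in both Cre libraries, beside 463 and 264 distal counts (adjusted p 0.00659, DESeq2). Trim59, a RING-type ubiquitin ligase, had 18, 13, 80, 54 and 64 proximal counts in Control and 0 in Cre, and Parp14, a mono-ADP-ribosyltransferase, had 92, 91, 61, 77 and 222 in Control, against 1 and 0 in Cre (adjusted p 0.0172 each, DESeq2). Crebbp, the histone acetyltransferase CBP, went the other way. Its distal region had 90, 212, 258, 97 and 95 counts in Control, against 0 and 6 in Cre (adjusted p 0.0411, DESeq2). The edgeR test called none of these regions.

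Distal shares that separated the groups went both ways. Of 616 chosen genes with at least 20 counts in every library, the distal share in both Cre libraries lay above all Control libraries in 45 (7.31%) and below them in 31 (5.03%). Of the 45, 22 had a chosen region at 0 in both Cre libraries, as had 4 of the 31. Such a region reached 100 counts through Control alone. The 7 libraries allow 21 splits into 5 and 2, and each direction is what a single split gives. Genes outside the chosen ones were not counted, and nothing is read from these shares. The difference of the group means was positive in 308 genes and negative in 308, with a median of 0.03 points, and stayed within 10 points in 306. In Psme2, an activator subunit of the proteasome, the distal share was 52.2%, 57.3%, 72.4%, 59.9% and 43.3% in Control and 87.6% and 93.3% in Cre. Gdi2, a GDP dissociation inhibitor of Rab proteins, lay the other way, with 94.5%, 100%, 98.0%, 94.0% and 70.2% in Control and 21.1% and 16.4% in Cre. Psme2 and Gdi2 were picked after their values were seen.

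Described by function, no group of chosen genes held a gene that passed the adjusted threshold. At an unadjusted p of 0.05 the background was 6.72% of all genes tested and 9.34% of the chosen genes tested, and with groups of 7 to 43 genes nothing is read about a group from the counts that follow. Among the 35 RNA-binding and splicing genes tested, Prpf31, Rbm39, Rbm5 and Tra2b reached an unadjusted p of 0.05. In Tra2b, a splicing activator, the proximal region held 134, 163, 43, 85 and 320 counts in Control, against 56 and 3 in Cre. Of 34 genes of the ubiquitin system, 5 did so, which were Fbxo3, Psme2, Rnf115, Trim35 and Trim59. Among 15 genes of T cell receptor signalling the count was 1, Nfatc1, among 23 genes of small GTPases and actin 1, Arhgef6, and among 7 T cell transcription factors 1, Satb1. The RNA-binding, ubiquitin and small GTPase groups were formed by the first letters of the gene symbol. Capn10, Cflar and Wipi2 entered the small GTPase and actin group through these letters only. The median of the fitted distal difference lay between -0.04 and 0.21 on the log2 scale in these 6 groups, against 0.04 over all chosen genes tested.

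The region with the most counts differed between the summed Control and the summed Cre libraries in 273 of 1083 genes (25.2%). Because these genes are picked by that difference, their values are a description. Among the 10 most highly counted of them, some had nearly even regions in Control. Rps26 had a distal share of 51.4% ± 3.67 in Control and 47.4% ± 0.372 in Cre, Eif3d, a subunit of translation initiation factor 3, had 53.7% ± 6.88 and 47.0% ± 0.653, and Numa1, a protein of the mitotic spindle poles, had 49.1% ± 5.62 and 57.7% ± 4.35. Id2, an inhibitor of basic helix-loop-helix factors, had 51.6% ± 17.4 and 73.8% ± 15.3. In others the main region of Control stood well above the next. Sfpq, a splicing factor, held 41.6% of its counts in region 3 and 24.4% in region 2 in Control (means), against 27.5% and 9.52% in Cre. It held 23.6% ± 6.30 of its counts in its most downstream region in Control and 43.6% ± 8.79 in Cre, and that region overlaps another gene's region on the same strand. In Cct8, a chaperonin subunit, the distal share was 54.7% ± 13.8 and 34.0% ± 20.9, and the middle region held means of 26.6% and 36.9%.

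By library, the median distal share of the chosen genes with at least 20 counts was 72.4%, 78.7%, 76.7%, 76.8% and 59.5% in Control and 74.2% and 82.3% in Cre. The means were 72.8% ± 7.79 (SD, n = 5) and 78.2% ± 5.78 (SD, n = 2), a difference of 5.41 points that was smaller than the Control SD (exact two-sided permutation test over libraries, p = 0.429). The difference was 2.09 points without Control 5, 1.33 without Cre 2 and 9.50 without Cre 1. With all counts summed the sign turned, to a difference of -0.93 points. It also turned, to -2.19 points, where the rule of 100 counts weighted both groups equally rather than summing 5 Control and 2 Cre libraries. Control 5 stood apart. It held 26.4% of its chosen counts in proximal regions, against 19.0% to 20.2% in the other Control libraries and 20.6% and 21.1% in Cre, and 21.4% in mostly intronic regions, against 15.7% to 18.6% in the other Control libraries. Its fibroblast marker sum, 492 CPM, was also the highest of all libraries, and whether the 2 are linked was not tested.

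In both Cre libraries a larger share of the chosen genes was seen through 1 region only than in any Control library, but these groups overlapped once the rule weighted them equally. Among genes with exactly 2 chosen regions and at least 20 counts in the library, all counts fell on 1 region in 4.26%, 33.2%, 25%, 31.2% and 15.2% of genes in Control and in 38.6% and 45.3% in Cre. The means were 42% ± 4.74 (SD, n = 2) in Cre and 21.8% ± 12 (SD, n = 5) in Control. The exact two-sided permutation test gave p = 0.0952, the smallest value that 2 against 5 libraries allow, so this design cannot reach 0.05. The rule sums 5 Control and 2 Cre libraries, so a region could be chosen through Control alone. With regions chosen by a sum that weighted both groups equally, the share was 5.66% to 34.0% in Control and 32.1% and 40.2% in Cre, so that Cre 1 fell within the Control range (exact two-sided permutation test, p = 0.238), and the difference of the means fell from 20.2 to 12.7 points. With every gene thinned to 20 counts the means were 49.8% and 30.2%, and in genes with 300 or more counts the share was 22.2% and 24.2% in Cre and 0% to 16.2% in Control. Cre 1 was the deepest library and Cre 2 the shallowest, and the part of depth in the share was not tested beyond this thinning. In all 7 libraries the region seen alone was mostly the distal one, for instance in Cre 2, where 248 genes were seen only distally and 39 only proximally. Chosen regions at 0 counts numbered 101, 596, 495, 555 and 308 in Control, against 727 and 921 in Cre, under the rule on the sum of all libraries. By counting error alone, a count of 0 allows up to 3 counts, or 1.55 to 2.07 CPM by library. The libraries differed by more than counting error, so a region at 0 may stand higher than that.

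**Figure D4:**
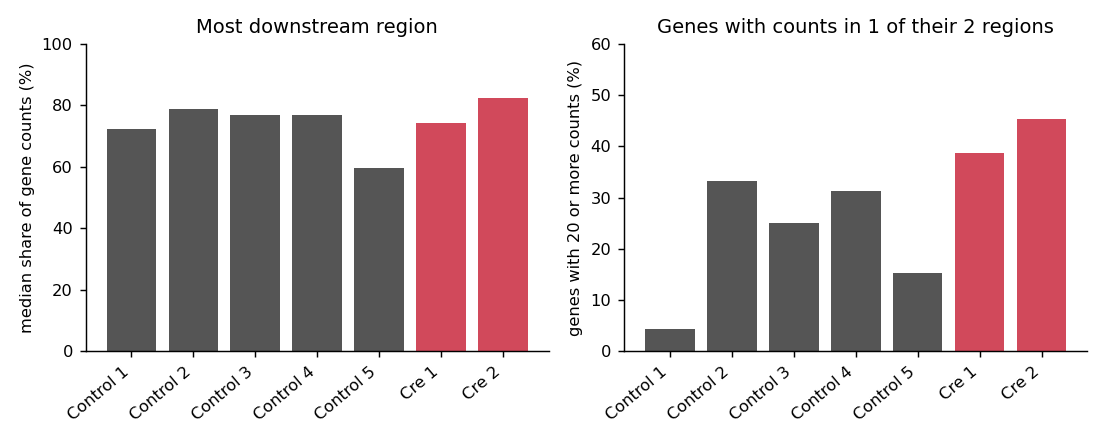
Left: median share of gene counts in the most downstream region, by library. Right: percent of genes with 2 chosen regions and at least 20 counts in the library whose counts all fell on 1 region; both Cre libraries (38.6% and 45.3%) lie above the 5 Control libraries (4.26% to 33.2%) for regions chosen by the sum over all 7 libraries.

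Some regions were nearly the property of 1 library. At least 80% of the summed CPM came from a single library in 166 regions, 53 of them in Cre 2, 51 in Cre 1 and 32 in Control 5, and in 10.6% of proximal against 1.80% of distal regions. The distal region of Ndufa3, a complex I subunit, held 28310 counts in Control 4 and between 17 and 213 elsewhere. That of Mrpl42, a mitochondrial ribosomal protein, held 6510 in Control 3 and between 10 and 123 elsewhere. In Calm2, a calmodulin gene, an 18-base coding region held 169 counts in Cre 1 and 0 in the other 6 libraries.

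The genes that carry out cleavage and polyadenylation were compared at the level of the gene. Of 32 listed genes 31 were tested and none passed an adjusted p of 0.05 (edgeR), where the background was 0% called higher and 0.0101% called lower among 9854 genes. At an unadjusted p of 0.05, 0 were higher and 2 lower, Cpsf1 and Cstf1, beside 1.41% and 10.2% of all genes. Cpsf1, the largest subunit of the cleavage and polyadenylation specificity factor, stood at 79.5, 67.4, 100.2, 32.5 and 140.1 CPM in the Control libraries, against 0.52 and 0 CPM in the Cre libraries (adjusted p 0.214). Cstf1, a subunit of the cleavage stimulation factor, stood at 33.2, 38.4, 34.4, 19.1 and 35.0 CPM in Control and at 0 in Cre (adjusted p 0.350). DESeq2 called 2 of the 31 lower, where it called 6.1% of all 9854 genes lower. The edgeR test called 1 lower with no filter (0.155% of all genes) and 1 without Cre replicate 1 (1.74%). The genes of the list went both ways, and 9 of the 31 had a positive fitted difference. In Cpsf2 and Ssu72 both Cre libraries exceeded every Control library. Cre 1 and Cre 2 reached 243.5 and 189 CPM for Cpsf2, while the highest Control library had 136.1 CPM (unadjusted p 0.0575, edgeR). For Ssu72 they reached 96.4 and 174.5 CPM, while the highest Control library had 55.2 CPM (unadjusted p 0.0654, edgeR). Papola, the enzyme that adds the tail, averaged 138 ± 80.7 CPM over Control and 108 ± 43.1 CPM over Cre libraries. Nudt21 and Cpsf6, which favour distal sites, had 55.8 ± 35.6 and 107 ± 105 CPM over Control, against 36.3 ± 27.9 and 56.6 ± 68.3 CPM over Cre libraries.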

How the data were processed

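The authors deposited whole-number counts per 3′ region for 7 libraries, made with a NEB Next Ultra kit. The submitters' processing notes name HISAT2 2.1.0, FastQC 0.11.8, DESeq2 and the build mm10. Which tool counted the regions, and whether it used strand, is not given in the sources used here, so a gene and an antisense partner cannot be told apart. Libraries were grouped by their titles. Regions were ordered along the strand and placed against GENCODE M21, from which the printed bases also come.

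Usage was tested with the quasi-likelihood diffSpliceDGE of edgeR 4.0.16 in R 4.3.3 on all regions kept by filterByExpr (minimum count 10, minimum total 15; 11800 regions), with TMM normalization and Benjamini-Hochberg adjustment. Limma 3.58.1 and DESeq2 1.42.0 were alternatives. Counts were simulated with a single dispersion for all regions, close to the common dispersion of these data (1.71). There the edgeR usage test missed most of the changed genes and made false calls above the nominal share. A count of 0 therefore does not show that usage was alike. In the data the spread of shares followed the gene's counts, which a single dispersion may not copy. Library values were compared by an exact permutation test. The replicate numbers do not pair the groups. SDs are over libraries, and the smallest library total limits shares of genes with few counts most.

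Named were the 12 genes with the smallest usage p, the 12 with the most counts, chosen genes of a list of 58 T cell genes and genes with known alternative ends, the 10 most counted genes whose main region differs, and the 5 with the most regions. The members and lists were chosen with earlier results of these data known. The authors' own comparison was not used here.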

Additional observations from a re-analysis of the deposited data

Results flagged for a closer look

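Among 70 sets of 5 Control values checked with Dixon's test, 10 held a library far from the other 4. For independent, normally distributed values chance flags about 1 set in 20. These values are bounded shares, and proximal and distal shares depend on each other, so the 10 are a description. Control 5 had 60.7% of its chosen counts in distal regions, against 69.1% to 69.8% in the other Control libraries, and 26.4% in proximal regions, against 19.0% to 20.2%. Its distal share was also apart in Itm2b (70.9%, against 82.6% to 86.7%), Ptprc (79.3%, against 97% to 100%) and Srsf7 (62.5%, against 90.3% to 99.6%). Control 1 lay apart in Arhgef6 (35.2%, against 82.7% to 100%) and Ppp1r16b (63.4%, against 97.1% to 100%). Control 3 lay apart in Numa1 (58.7%, against 45.1% to 48.6%) and Pcbp2 (87.0%, against 97% to 100%), and Control 2 in Ccnd3 (89.8%, against 97.7% to 99.0%).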

How the results depend on the processing

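The count of genes with changed usage (0) became 2 of 481 under the filter that asks for 10 counts in 5 libraries, and 0 to 6 with 1 library left out, the 6 without Cre replicate 1; under the other alternatives run it was 0. The count of regions (0) became 27 with DESeq2 and was 0 under the other alternatives, leave-one-out fits included. The count of cleavage and polyadenylation genes (0) became 1 with no filter, 2 with DESeq2 and 0 to 1 with 1 library left out, the 1 without Cre replicate 1. In these 3 settings 0.155%, 6.1% and 1.74% of all genes tested were called lower. The difference in median distal share (5.41 points) ranged from 1.33 to 9.50 points with 1 library left out and turned to -0.93 points with counts summed and to -2.19 points with regions chosen by a sum that weighted both groups equally. The difference in the share of genes seen through 1 region (20.2 points) ranged from 15.8 to 23.6 points with 1 library left out and was 12.7 points with both groups weighted equally, a rule added after seeing the data. Leave-one-out fits moved the difference of the proximal region of Ppp1r16b between -3.25 (without Cre replicate 1) and 3.97 on the log2 scale, and that of the distal region of Me2 between 0.39 (without Cre replicate 1) and -10.54. Me2 had no count in Cre 2, so its value without Cre replicate 1 does not measure usage. For Ppp1r16b that fit rests on 17 Cre counts, all distal. Any other cause was not tested. With the replicate number as a block, 0 genes and 0 regions passed and 17 genes had an unadjusted p under 0.05, and 0 genes of the cleavage list passed; same-numbered libraries did not deviate together (correlations of -0.005 and -0.007), and the exact tests have no block. Leaving out regions under 50 bases and the earlier quasi-likelihood form of edgeR, both added after seeing the data, left the counts at 0. The earlier form gave an unadjusted p under 0.05 in 253 of 1562 genes and 256 of 3669 regions. Of the chosen regions at that level, 7 were higher and 197 lower in Cre. The number of Cre libraries, 2, and the Control SD of the distal share, 28.0 points in genes with a mean of 20 to 100 counts, limit what these comparisons can show.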
